A study of Homo sapiens with 16 samples.

Results

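The 10 genes described here encode proteins of cytokinesis and abscission, and they were taken by symbol from a table of 57820 genes measured in all 16 libraries of the series. They are ANLN, ECT2, RACGAP1, PRC1, CIT, CEP55, RHOA, CHMP4B, PDCD6IP and TSG101, and all 10 passed the filter on low values (FPKM above 1 in at least 1 library), as did 18925 genes in total. The cells were Flp-In T-REx HEK-293, a human embryonic kidney line in which a tetracycline-regulated transgene sits at a single recombination site. The HCF-2 WT line carried Flag- and Cherry-tagged wild-type HCF-2. The HCF-2 Fn3nc* line carried the same protein with a changed residue in its Fn3n segment and in its Fn3c segment. These segments hold its fibronectin type 3 repeats. Both lines were grown in tetracycline-free serum and then given doxycycline at 1 µg/ml, which all groups shared, and poly(A) RNA was sequenced 1, 2, 4 and 6 days later in 2 libraries for each line and day. No uninduced library and no tag-only line enters the comparisons, so day 1 of the same line is the earliest reference. The sources used here do not give whether each line was grown from a single clone. The study set levels of HCF-2 against cell division, and these genes act at the last step of that process.

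When chromosomes have separated, PRC1 bundles the overlapping microtubules of the central spindle, where centralspindlin, of which RACGAP1 is a subunit, binds ECT2. ECT2 switches on the small GTPase RHOA at the cell equator, and RHOA drives assembly of the actomyosin ring that ANLN (anillin) scaffolds and that CIT (citron kinase) helps turn into a stable midbody. CEP55 then recruits PDCD6IP (ALIX) and TSG101, an ESCRT-I subunit, to the midbody, and these bring in ESCRT-III filaments of CHMP4B that sever the intercellular bridge. Transcripts of the spindle and ring proteins are known to accumulate late in the cell cycle, whereas RHOA, PDCD6IP, TSG101 and CHMP4B also serve interphase functions such as adhesion and endosomal sorting.

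Total expected counts ranged from 20270033 to 31006448 per library, and the 2 libraries of HCF-2 Fn3nc* day 1 were the deepest. These 2 libraries stood apart from the rest of their line: 4603 genes were called between day 6 and day 1 of that line, but 542 between day 6 and day 2, against 4017 and 3935 in the HCF-2 WT line. For this reason the day 6 calls are also given from day 2. In the HCF-2 WT line, day 4 replicate 2 had 36342 genes with a count, against at most 31607 in any other library. The largest ratio between duplicates was on HCF-2 WT day 4 for ANLN, ECT2, RACGAP1 and CIT. Over all genes, too, the duplicates of that group differed most. HCFC2, the gene for HCF-2, had between 893 and 1479 CPM (reads scaled to the library size) in all 16 libraries, which cannot be set against an uninduced level. On day 1 it had 963 and 917 CPM in HCF-2 WT and 893 and 909 in HCF-2 Fn3nc*. On day 2 it had 947 and 980 against 1348 and 1297, and on day 4 1150 and 1065 against 1403 and 1479. On day 6 it had 1362 and 1306 against 1396 and 1384. HCFC2 was thus higher on day 6 than on day 1 in both lines, and lower in HCF-2 WT on days 2 and 4. The study traces reads of its coding sequence to the endogenous gene and the transgene alike, and these CPM do not separate them. Of 10 markers of HEK-293 and epithelial cells, 8 were above 1 FPKM in at least 1 library of the HCF-2 WT line. In the HCF-2 Fn3nc* line 7 were, by the same rule. The summed levels were 725 to 835 FPKM and 562 to 692 FPKM. The summed markers of fibroblasts, endothelium, blood, hepatocytes and squamous epithelium ranged from 0.08 to 9.23 FPKM per list and library, the highest being the blood list on day 1 of the HCF-2 Fn3nc* line (8.94 and 9.23). The part of these differences in the results below was not tested. Doxycycline was given to duplicate samples of each line, and the p-values measure the spread between such duplicates of 1 line.

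The promoters are shown because late cell cycle genes are known to share 2 short elements, the cell cycle genes homology region (CHR, searched as TTTGAA on both strands) and the CCAAT box (searched as CCAAT on both strands). RefSeq windows of GRCh38.p14, from 250 bases before to 50 bases after the start site, matched 9 of the 10 genes, all but RACGAP1. A CHR was found in 5 of the 9 (ANLN, ECT2, PRC1, CIT and CEP55) and in 15.2% of all 35116 promoter windows of the same length. A CCAAT box was found in ECT2, PRC1, CIT, CEP55 and RHOA and in 34.6% of all windows. The genes were counted with a match in any of their windows (ECT2 has 2), whereas both shares are per window. The windows of TSG101, PDCD6IP and CHMP4B held neither. A match is a string of letters and says nothing about binding, and the 2 strings do not overlap with each other. The whole PRC1 window is given first, since PRC1 had the widest change over days, with its CCAAT box and its CHR in capitals. The CHR began 20 bases before the start site.
PRC1, chr15:90994486-90994785, - strand: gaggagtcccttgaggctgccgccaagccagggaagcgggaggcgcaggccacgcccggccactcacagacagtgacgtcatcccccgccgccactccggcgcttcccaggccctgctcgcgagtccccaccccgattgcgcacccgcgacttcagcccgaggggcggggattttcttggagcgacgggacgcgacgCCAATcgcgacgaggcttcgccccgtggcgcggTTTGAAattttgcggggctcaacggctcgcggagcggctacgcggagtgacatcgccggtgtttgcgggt

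The CHR nearest to the start site in the other 4 genes is given in capitals with up to 15 bases on either side. It began 20 bases before the start site in ANLN, 3 before it in CEP55 and 10 after it in CIT, and 34 after the upstream start site of ECT2, which has 2 windows of which the first ends soon after that string. In ANLN the same 6 letters also occur on the other strand directly before it, beginning 26 bases before the start site.
ANLN, chr7:36389827-36389862, + strand: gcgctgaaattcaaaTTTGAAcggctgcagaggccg
CEP55, chr10:93496594-93496629, + strand: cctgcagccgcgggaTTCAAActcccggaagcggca
CIT, chr12:119877290-119877325, - strand: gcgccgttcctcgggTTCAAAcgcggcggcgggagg
ECT2, chr3:172750745-172750775, + strand: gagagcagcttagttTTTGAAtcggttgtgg

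The TSG101 window is given for contrast, because TSG101 differed between the lines on every day and its window held neither string.
TSG101, chr11:18526893-18527192, - strand: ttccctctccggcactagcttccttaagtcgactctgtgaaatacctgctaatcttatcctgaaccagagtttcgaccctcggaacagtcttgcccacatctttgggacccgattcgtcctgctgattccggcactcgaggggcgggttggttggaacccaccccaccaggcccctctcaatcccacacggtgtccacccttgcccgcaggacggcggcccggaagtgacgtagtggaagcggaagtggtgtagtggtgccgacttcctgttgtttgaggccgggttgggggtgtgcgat

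All 10 genes were well expressed. By median FPKM over the 16 libraries, a scale per length on which genes can be compared, the order was RHOA (170.3), PRC1 (158), PDCD6IP (65.3), RACGAP1 (63.6), ANLN (45.9), TSG101 (36.4), ECT2 (36.2), CEP55 (34.9), CHMP4B (25.7) and CIT (17.8). The ranges over libraries did not overlap between PRC1 and PDCD6IP or between CHMP4B and CIT, and they overlapped between all other neighbours. TSG101 was above ECT2 in 8 of 16 libraries, and RHOA was above PRC1 in 12 of 16. Below, levels within a gene are given as CPM scaled by TMM, in the order of the 2 libraries, and differences as log2 fold changes fitted by edgeR.

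**Figure D1:**
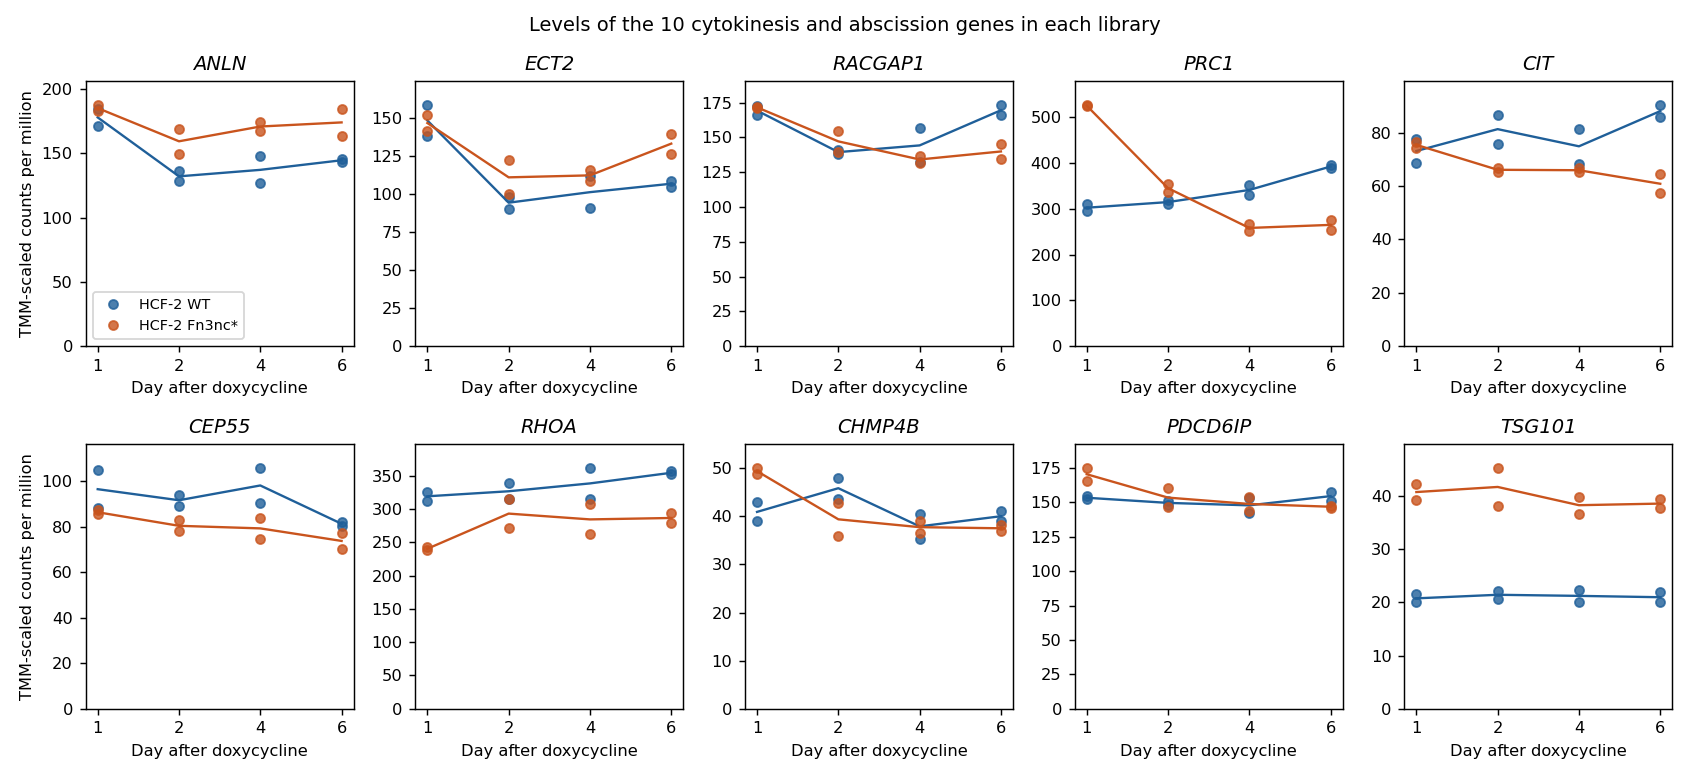
Level of each gene (TMM-scaled CPM, axes from 0) against day after doxycycline, with days evenly spaced, in HCF-2 WT (blue) and HCF-2 Fn3nc* (orange) libraries. Points are single libraries and lines join the means of 2. PRC1 on day 1 of the Fn3nc* line (527 and 524) lies above every other library, and the TSG101 levels of the lines do not overlap on any day.

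A gene was called where its adjusted p was below 0.05 and its log2 fold change was larger than 0.5 in size, and few of the 10 were. Within the HCF-2 WT line 1 gene fell on day 2 (ECT2, with 0.275% of all tested genes lower and 0.301% called in either direction) and the same gene fell on day 4 (1.87% lower and 7.00% in either direction), while none was called on day 6 from day 1 (21.2% of all genes in either direction) or from day 2 (20.8%). At an adjusted p under 0.05 alone, edgeR gave 3 of the 10 on day 6 from day 1 (PRC1, ECT2 and ANLN) and 1 from day 2 (PRC1), against 35.5% and 34.8% of all genes. DESeq2 called none of them past both thresholds in either. Within the HCF-2 Fn3nc* line 1 gene, PRC1, fell on day 2 (10.7% of all genes lower, 14.9% in either direction), day 4 (15.4%, 23.5%) and day 6 (15.4%, 24.3%), and none was called on day 6 from day 2 (2.86% in either direction), where PRC1 alone of the 10 had an adjusted p under 0.05, against 7.18% of all genes. The 3 days of a line share its day 1 libraries. Between the lines, 2 genes were higher in HCF-2 Fn3nc* on day 1 (PRC1 and TSG101), against 18.7% of all genes higher and 34.2% in either direction. TSG101 alone was higher on day 2 (9.08% of all genes, 16.6% in either direction) and day 4 (10.1%, 22.2%). On day 6 TSG101 was higher (13.2%) and PRC1 and CIT were lower (16.8%), with 30.0% of all genes called in either direction. These counts of 0 to 3 in 10 past both thresholds were mostly near or below the shares of all genes. The exception, HCF-2 WT on day 2, rests on the single call of ECT2. At an edgeR adjusted p under 0.05 alone, HCF-2 Fn3nc* had 7, 6 and 6 of the 10 on days 2, 4 and 6 from day 1. The shares of all genes there were 34.3%, 43.2% and 43.7%. Between the lines the counts were 4, 3, 5 and 7 on days 1, 2, 4 and 6. The shares of all genes were 52.0%, 31.9%, 39.5% and 46.9%.

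The median of the 10 log2 fold changes in the HCF-2 WT line was 0.00 (day 2), -0.01 (day 4) and -0.02 (day 6). In the HCF-2 Fn3nc* line it was -0.23 (day 2), -0.23 (day 4) and -0.26 (day 6), with 9 of the 10 below 0 on day 6, and from day 2 to day 6 it was -0.09. From day 2 to day 6 of the HCF-2 WT line the median was 0.09 and the 10 values lay between -0.22 and 0.29. The medians over all tested genes in those 4 comparisons of the Fn3nc* line were between -0.03 and 0.00.

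**Figure D2:**
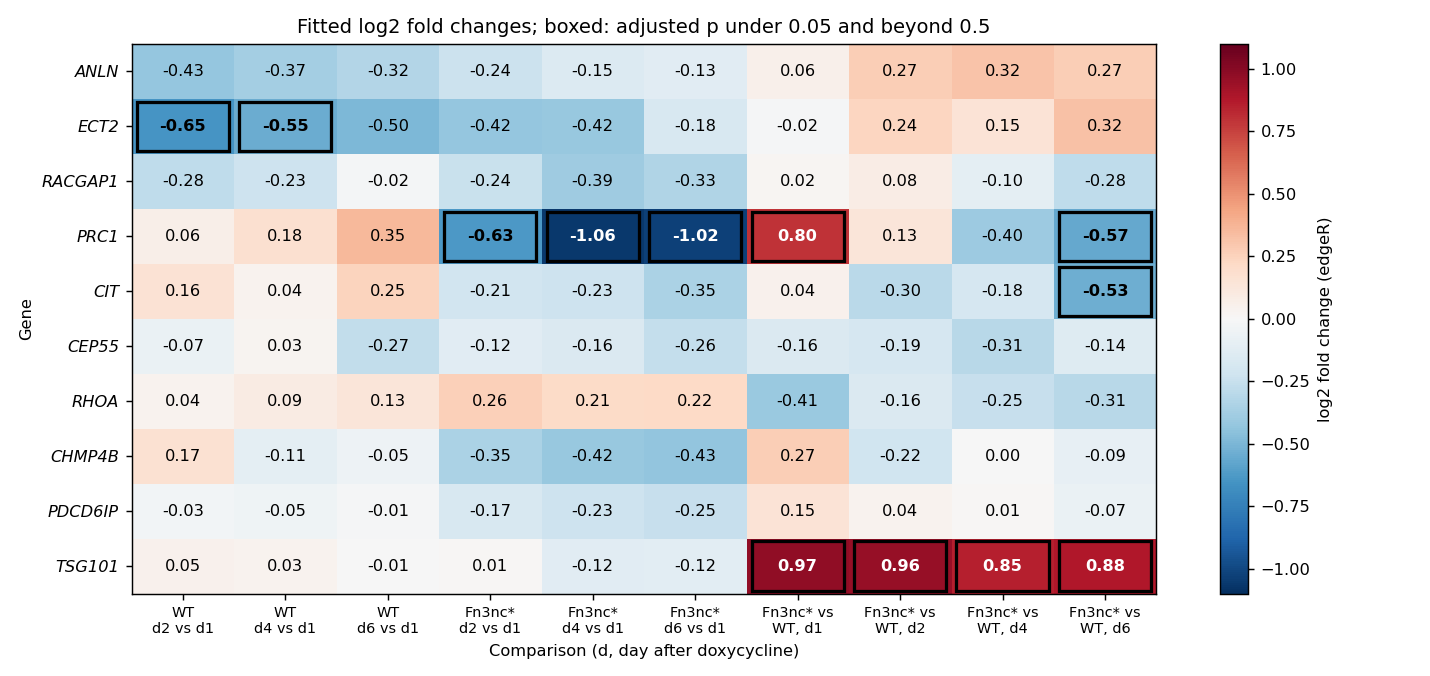
Log2 fold change of each gene (rows) in 10 comparisons (columns), from edgeR, coloured from -1.1 (blue) to 1.1 (red). Boxed values have an adjusted p under 0.05 and lie beyond 0.5. The PRC1 row turns from 0.80 to -0.57 between the lines from day 1 to day 6, and the TSG101 row is 0.85 to 0.97 on all days.

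PRC1 (ENSG00000198901, chr15:91509270-91538859 on GRCh37, minus strand), the bundler of the central spindle, had the widest change over days. In the HCF-2 Fn3nc* line its CPM were 527 and 524 (day 1), 354 and 336 (day 2), 251 and 266 (day 4) and 254 and 276 (day 6). The day 1 libraries were high and the groups fell apart without overlap into day 1, day 2 and the later days. In the HCF-2 WT line the CPM were 309.8 and 295 (day 1), 311 and 319 (day 2), 351 and 331 (day 4) and 396 and 388 (day 6). There the day 6 libraries were the highest. The fall in the Fn3nc* line was -0.63 ± 0.07 (SE, n = 2 against 2, edgeR adjusted p = 8.66e-05) on day 2, -1.06 ± 0.07 (edgeR adjusted p = 1.16e-06) on day 4 and -1.02 ± 0.07 (edgeR adjusted p = 1.41e-06) on day 6. It remained past the threshold under all 11 alternatives on each of these days, with day 6 values from -1.08 to -0.94. From day 2 to day 6 the difference was -0.40 ± 0.07 (edgeR adjusted p = 0.00735), short of the fold threshold. In the HCF-2 WT line the day 6 value was 0.35 ± 0.08 (edgeR adjusted p = 0.00492), also short of it. In these bulk libraries, less PRC1 mRNA per cell and fewer cells in mitosis cannot be told apart.

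Between the lines, PRC1 was 0.80 ± 0.07 higher in HCF-2 Fn3nc* on day 1 (edgeR adjusted p = 1.22e-07), 0.13 ± 0.07 on day 2 (edgeR adjusted p = 0.146), -0.40 ± 0.07 on day 4 (edgeR adjusted p = 0.000218) and -0.57 ± 0.07 on day 6 (edgeR adjusted p = 5.65e-06). The sign of the difference turned between day 2 and day 4. With library totals in place of TMM the day 6 value was -0.44, which is past the adjusted p threshold but not the fold threshold.

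The counts and the FPKM of PRC1 did not move by the same amount. Dividing a count by the library total and the FPKM gives the effective length that RSEM, the program that made the values, averaged over the transcripts it assigned reads to, and this was 1645 and 1625 nt on day 1 of the HCF-2 Fn3nc* line against 1839 to 2201 nt in the other 14 libraries. The day 1 libraries of the Fn3nc* line were thus alone at the low end, with assigned PRC1 transcripts shorter on average. Against HCF-2 WT day 1 the log2 difference was -0.33, and 2.11% of 11817 genes with mean counts of 100 or more and FPKM above 1 in every library had a lower one. The median of those genes was -0.01. With this length difference, the FPKM of PRC1 (323 and 328 on day 1 and 133 and 137 on day 6 of the Fn3nc* line) moved by more than its counts. For comparison, the same quantity was 1521 nt in all 16 libraries for CHMP4B. PRC1 counts were fractional in 16 of 16 libraries, as were those of PDCD6IP, since RSEM divides reads between overlapping or similar genes. In PRC1, 22286 bases of the gene overlap PRC1-AS1 on the opposite strand, which had a mean count of 27.8. The sources used here do not give whether counting took the strand into account.

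**Figure D3:**
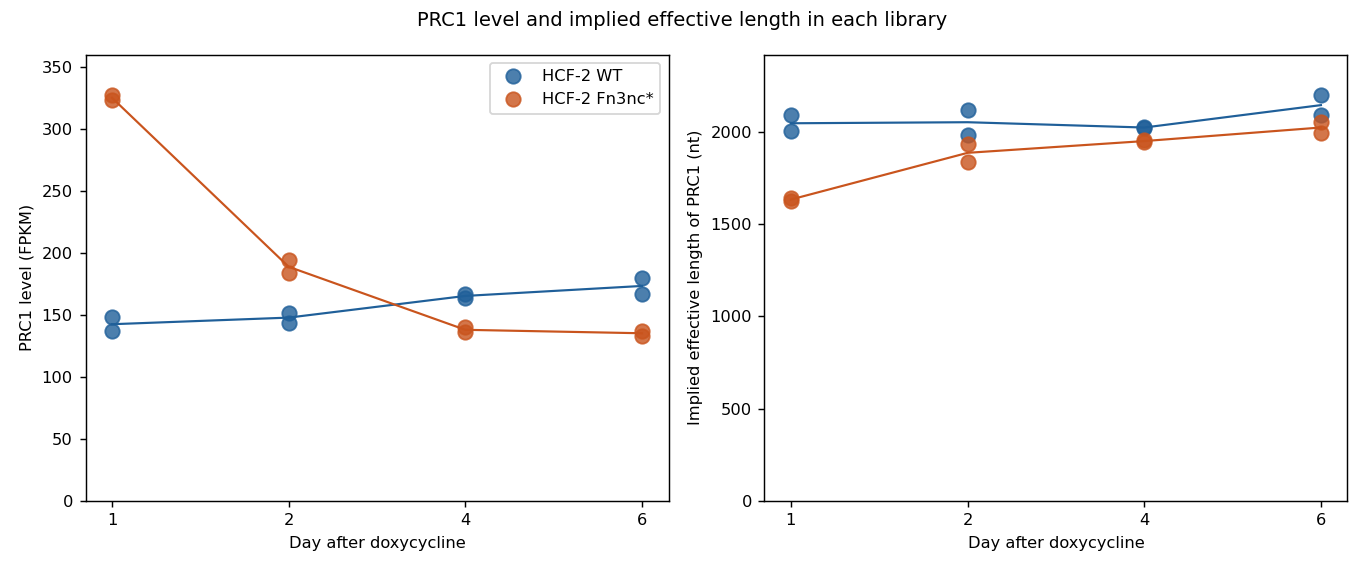
PRC1 in each library against day after doxycycline (HCF-2 WT blue, HCF-2 Fn3nc* orange, lines through the means of 2), as FPKM on the left and as implied effective length in nt on the right, both axes from 0. The Fn3nc* day 1 libraries have the highest FPKM (323 and 328) and the shortest implied length (1645 and 1625 nt).

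RACGAP1 (ENSG00000161800, chr12:50370706-50426919), the GTPase-activating subunit of centralspindlin, varied little. Its CPM in the HCF-2 WT line were 173 and 166 (day 1), 138 and 141 (day 2), 156 and 132 (day 4) and 166 and 173 (day 6), so the libraries of days 1 and 6 overlapped. In the HCF-2 Fn3nc* line they were 171 and 172 (day 1), 155 and 139 (day 2), 131 and 137 (day 4) and 134 and 146 (day 6), with day 1 the highest group. No comparison over days or between lines was called, and the largest was the Fn3nc* line on day 4, -0.39 ± 0.07 (edgeR adjusted p = 0.00102).

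ECT2 (ENSG00000114346, chr3:172468472-172539264), the exchange factor that activates RHOA, was the gene of the 10 that fell in the HCF-2 WT line. Its CPM there were 158 and 138 (day 1), 90.4 and 98.2 (day 2), 112 and 90.7 (day 4) and 105 and 109 (day 6), and no library of a later day reached those of day 1. The difference was -0.65 ± 0.11 (SE, n = 2 against 2, edgeR adjusted p = 0.0351) on day 2 and -0.55 ± 0.11 (edgeR adjusted p = 0.00927) on day 4. On day 6 it was -0.50 ± 0.11 (edgeR adjusted p = 0.00469), just short of the fold threshold (-0.497 before rounding), and from day 2 to day 6 it was 0.15 (edgeR adjusted p = 0.322). The day 2 call was lost when any 1 of the 4 libraries was left out, with values from -0.74 to -0.55 and adjusted p from 0.0959 to 0.489. The day 4 call was lost without HCF-2 WT day 1 replicate 1 (-0.44, adjusted p = 0.0848) and without HCF-2 WT day 4 replicate 2 (-0.40, adjusted p = 0.0193). The CPM of ECT2 in the HCF-2 Fn3nc* line were 152 and 141 (day 1), 122 and 99.7 (day 2), 108 and 116 (day 4) and 127 and 139.7 (day 6), also highest on day 1. There the differences of -0.42 on day 2 (edgeR adjusted p = 0.00559), -0.42 on day 4 (edgeR adjusted p = 0.00411) and -0.18 on day 6 (edgeR adjusted p = 0.154) did not reach the fold threshold. The difference between the lines in the day 6 response was -0.33 ± 0.15 (WT response minus Fn3nc* response, edgeR adjusted p = 0.106), so the lines were not shown to differ.

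ANLN (ENSG00000011426, chr7:36429430-36493400), the ring scaffold, was close to ECT2 in its pattern: by root mean square difference of centred log2 CPM over 16 libraries this pair (0.107) was the second closest of the 45 pairs among the 10, after RACGAP1 and PDCD6IP (0.106). In the HCF-2 WT line the CPM of ANLN were 185 and 171 (day 1), 128 and 136 (day 2), 148 and 127 (day 4) and 144 and 146 (day 6), with day 1 above all later libraries. The differences were -0.43 on day 2 (edgeR adjusted p = 0.114), -0.37 on day 4 (0.0245) and -0.32 on day 6 (0.0198), none past the fold threshold, and 0.10 from day 2 to day 6 (0.434). In the HCF-2 Fn3nc* line its libraries ranged from 149.7 to 187 CPM, and it was 0.27 to 0.32 higher than in the HCF-2 WT line on days 2, 4 and 6, short of the fold threshold.

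RHOA (ENSG00000067560, chr3:49396572-49450431), the GTPase of the ring, had the highest median FPKM. Its CPM were 326 and 312 (day 1), 314 and 339 (day 2), 362 and 315 (day 4) and 356 and 352 (day 6) in the HCF-2 WT line and 243 and 238 (day 1), 314 and 272 (day 2), 262 and 307 (day 4) and 279.6 and 293 (day 6) in the HCF-2 Fn3nc* line. The Fn3nc* day 1 libraries were the lowest of all 16. The difference between lines on day 1 was -0.41 ± 0.09 (edgeR adjusted p = 0.00141), short of the fold threshold, and it was between -0.31 and -0.16 on later days.

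CIT (ENSG00000122966, chr12:120123596-120315124), the midbody kinase, had CPM of 68.8 and 77.6 (day 1), 86.9 and 75.9 (day 2), 68.4 and 81.4 (day 4) and 85.9 and 90.4 (day 6) in the HCF-2 WT line. Those of the HCF-2 Fn3nc* line were 74.3 and 76.6 (day 1), 65.5 and 66.8 (day 2), 65.2 and 66.7 (day 4) and 64.4 and 57.4 (day 6). The lines overlapped on day 1 and were apart on day 6, when CIT was lower in HCF-2 Fn3nc* by -0.53 ± 0.09 (SE, n = 2 against 2, edgeR adjusted p = 0.000224). This call was lost without HCF-2 Fn3nc* day 6 replicate 2 (-0.45, adjusted p = 0.00587) and with library totals in place of TMM (-0.41, adjusted p = 0.00468), in both cases by the fold threshold. The implied effective length of CIT ranged from 3567 to 5440 nt over the libraries, the widest of the 10, and on day 6 it was shorter in HCF-2 Fn3nc* by a log2 difference of -0.29. With its CPM and its length both lower, the FPKM of CIT were 16.5 and 18.6 in HCF-2 WT and 16.2 and 16.0 in HCF-2 Fn3nc* on day 6, closer together than its CPM.

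CEP55 (ENSG00000138180, chr10:95256369-95288849), which opens the abscission step, was called in no comparison. Its CPM ranged from 80.4 to 106 in the HCF-2 WT line and from 70.3 to 87.1 in the HCF-2 Fn3nc* line. On day 6 from day 1 the differences were -0.27 ± 0.10 in HCF-2 WT (edgeR adjusted p = 0.065) and -0.26 ± 0.07 in HCF-2 Fn3nc* (edgeR adjusted p = 0.0141). From day 2 they were -0.20 and -0.14 (edgeR adjusted p = 0.169 and 0.309).

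PDCD6IP (ENSG00000170248, chr3:33840063-33911199), the adaptor ALIX, was the steadiest of the 10, with a highest library 1.23 times its lowest. Its CPM ranged from 142 to 158 in the HCF-2 WT line and from 144 to 175 in the HCF-2 Fn3nc* line, where day 1 (175 and 166) was the highest group. No comparison was called. The counts of PDCD6IP, like those of PRC1, were fractional in 16 of 16 libraries.

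TSG101 (ENSG00000074319, chr11:18489883-18548498, minus strand), the ESCRT-I subunit that CEP55 recruits in parallel with ALIX, separated the lines on every day. Its CPM in the HCF-2 WT line were 21.5 and 20.0 (day 1), 22.2 and 20.6 (day 2), 22.3 and 20.1 (day 4) and 20.0 and 21.9 (day 6). Those of the HCF-2 Fn3nc* line were 42.3 and 39.1 (day 1), 45.2 and 38.1 (day 2), 36.6 and 39.8 (day 4) and 37.7 and 39.3 (day 6). The lowest Fn3nc* library (36.6) was above the highest WT library (22.3), and neither line drifted with day. TSG101 was higher in HCF-2 Fn3nc* by 0.97 ± 0.10 (SE, n = 2 against 2, edgeR adjusted p = 7.08e-07) on day 1, 0.96 ± 0.10 (edgeR adjusted p = 3.80e-06) on day 2, 0.85 ± 0.10 (edgeR adjusted p = 7.62e-06) on day 4 and 0.88 ± 0.10 (edgeR adjusted p = 3.18e-06) on day 6. All of the 10 alternatives on each day gave the call, with values from 0.76 to 1.08. Within a line the differences over days lay between -0.13 and 0.05, with edgeR adjusted p of at least 0.296. The implied effective length was 749 to 857 nt, with the lines overlapping.

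CHMP4B (ENSG00000101421, chr20:32399154-32442172), the ESCRT-III filament protein that cuts the bridge, had CPM of 39.0 and 42.9 (day 1), 48.0 and 43.7 (day 2), 40.5 and 35.3 (day 4) and 41.1 and 39.0 (day 6) in the HCF-2 WT line and 48.7 and 50.1 (day 1), 42.8 and 36.0 (day 2), 36.5 and 39.0 (day 4) and 36.9 and 38.2 (day 6) in the HCF-2 Fn3nc* line. The Fn3nc* day 1 libraries were the highest of the 16. The differences from day 1 in that line were -0.35, -0.42 and -0.43 on days 2, 4 and 6 (edgeR adjusted p = 0.00798, 0.00189 and 0.00162), none past the fold threshold, and from day 2 to day 6 it was -0.09 (edgeR adjusted p = 0.615).

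The difference between the lines in their day 6 response was tested as an interaction, coded as the WT response minus the Fn3nc* response and called at an adjusted p under 0.05. From day 1, 3 of the 10 were called, all with a positive sign, against 20.0% of all genes with that sign and 36.1% with either. These were PRC1 (1.36 ± 0.09, edgeR adjusted p = 8.38e-08), CIT (0.58 ± 0.13, 0.00276) and CHMP4B (0.37 ± 0.13, 0.0429). As FPKM, CIT did not rise in HCF-2 WT (means of 17.5 on day 1 and 17.5 on day 6). From day 2, 2 were called against 13.9% of all genes with that sign and 24.3% with either, PRC1 (0.70 ± 0.09, edgeR adjusted p = 0.000105) and RACGAP1 (0.36 ± 0.11, 0.0352). Only PRC1 was called from both reference days, and it kept the call under all 14 alternatives of each. The CHMP4B call was lost under 10 of 14 alternatives, among them 7 of the 8 that left out 1 library, and its day 2 value was -0.13. The RACGAP1 call was lost under 6 of 14.

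**Figure D4:**
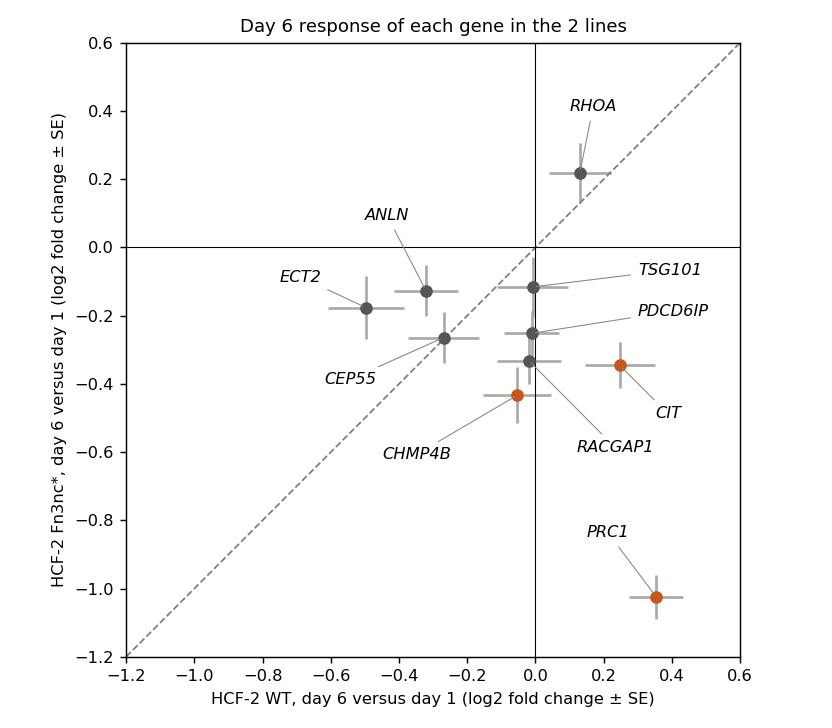
Log2 fold change from day 1 to day 6 in HCF-2 WT (horizontal axis) and HCF-2 Fn3nc* (vertical axis) for each gene, with SE from edgeR as bars and the line of equal response dashed. Orange points are the 3 genes called in the interaction test from day 1 (PRC1, CIT and CHMP4B), of which only PRC1 was also called from day 2. The CHMP4B call was lost under 10 of 14 alternatives. PRC1 lies farthest from the dashed line, at 0.35 and -1.02.

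The genes around TSG101 on chromosome 11 were looked at after its values were seen. Of the 10 other tested genes with mean counts of 100 or more within 1000000 bases on either side, 8 were called higher in HCF-2 Fn3nc* on day 1, and 8, 7 and 9 were on days 2, 4 and 6. Over all 12234 genes with that mean count the shares called higher were 18.4%, 8.27%, 10.6% and 13.3%. Genes of one stretch of a chromosome are not independent of each other. The nearest of these on either side, LDHA, a lactate dehydrogenase subunit, and UEVLD, a TSG101-related gene, had day 6 differences of 0.83 and 0.96. HPS5, GTF2H1, UEVLD, SPTY2D1, E2F8 and NAV2 were called on all 4 days, as TSG101 was. SERGEF, the first of the stretch, had the opposite sign on all days (-0.51 to -0.71 on days 1 and 6).

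**Figure D5:**
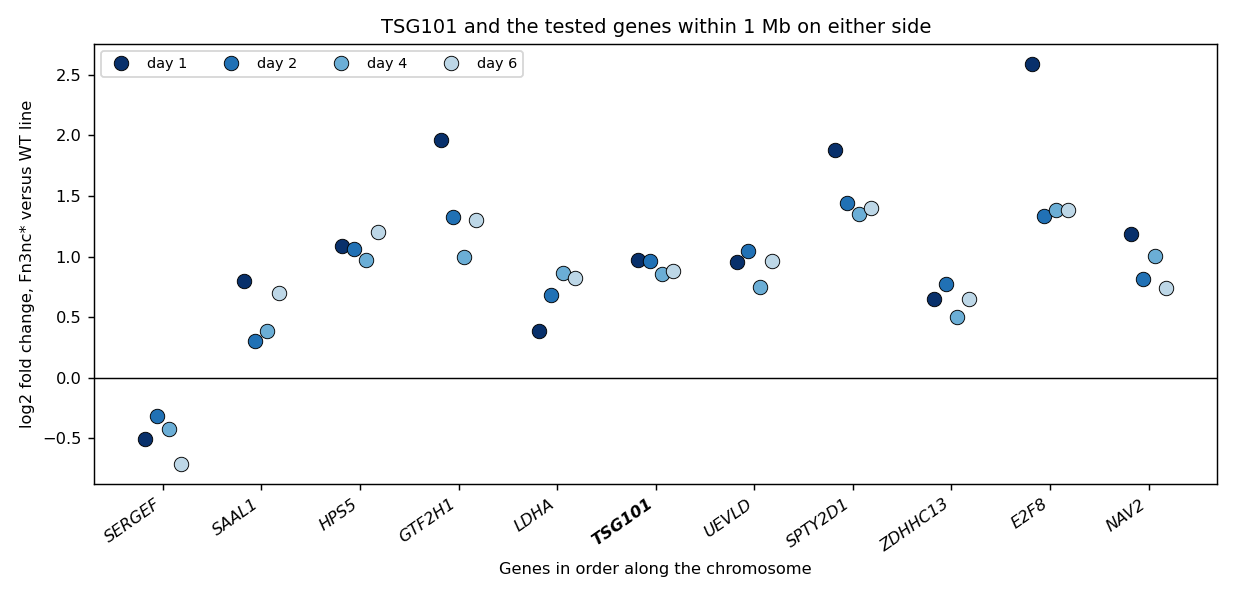
Log2 fold change between the HCF-2 Fn3nc* and HCF-2 WT lines (edgeR) on days 1, 2, 4 and 6, dark to light, for TSG101 and the 10 tested genes within 1 Mb on either side, in their order along the chromosome. All except SERGEF are above 0 on all 4 days.

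Among the other 9 genes, PRC1, CHMP4B and ECT2 had more neighbours lower than the share of all genes on all 4 days. For ECT2 this rests on only 4 neighbours, of which 2 were lower on day 1 and 1 on each later day. PDCD6IP had 3 of 7 higher on days 4 and 6. Around PRC1, 12 of 17 neighbours were called lower in HCF-2 Fn3nc* on day 6, and 6, 7 and 7 on days 1, 2 and 4. Around CHMP4B, 8 of 17 were lower on day 6, and 6 on each earlier day. The shares of all 12234 genes called lower were 20.1%, 9.84%, 13.2% and 18.7% on days 1, 2, 4 and 6. The PRC1 neighbours had a median log2 difference of -0.28 on day 1 and -0.61 on day 6. PRC1 itself was thus opposite to the median of its neighbours on day 1 (0.80) and near it on day 6 (-0.57). CHMP4B was not called between the lines on any day.

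Other genes of the pathway were counted from lists chosen by function, and no difference between the lines in these counts was tested. The shares of all genes called in either direction, given above, were 21.2% in HCF-2 WT and 24.3% in HCF-2 Fn3nc* on day 6 from day 1, 20.8% and 2.86% from day 2, and 34.2% and 30.0% between the lines on days 1 and 6. Of 16 further central spindle and midbody genes, none was called in the HCF-2 WT line on day 6 from day 1, and in the HCF-2 Fn3nc* line 4 fell and 1 rose. The kinesins KIF20B (-0.91) and KIF4A (-0.68), the latter a partner of PRC1, fell, and RAB11FIP3 (0.51), an effector of Rab11 at the midbody, rose. From day 2 none of the 16 was called in either line. Of 16 tested contractile ring and septin genes, 1 rose in HCF-2 WT (SEPT6, a septin, 0.66) and 2 fell in HCF-2 Fn3nc* (DIAPH3, an actin-nucleating formin, -1.55, and MYH9, a non-muscle myosin heavy chain, -0.56). From day 2, 1 of the 16 rose in HCF-2 WT (SEPT6, 0.69) and 1 fell in HCF-2 Fn3nc* (DIAPH3, -0.59). DIAPH3 and MYH9 had been higher in HCF-2 Fn3nc* on day 1, by 2.23 and 0.83, as had KIF20B (0.76) and KIF4A (0.73), while RAB11FIP3 was lower (-1.19).

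Of 25 other ESCRT genes, 1 rose (CHMP4C, 0.62) and 2 fell (CHMP4A, -0.98, and CHMP3, -0.72, all ESCRT-III subunits) in HCF-2 WT on day 6 from day 1. In HCF-2 Fn3nc* 3 rose, among them CHMP6 (0.78), which starts ESCRT-III filaments, and VPS37C (0.55), an ESCRT-I subunit. In the same comparison 5 fell, among them UBAP1 (-0.94), an ESCRT-I subunit, and IST1 (-0.69), an ESCRT-III-like protein of abscission. From day 2 none of the 25 was called in HCF-2 Fn3nc*, and 3 fell in HCF-2 WT (CHMP4A, -0.90, CHMP3, -0.60, and CHMP1A, -0.57, the last named after its values were seen). Between the lines on day 1, 8 were higher in HCF-2 Fn3nc*, led by UBAP1 (0.96) and MITD1 (0.94), an abscission factor that binds ESCRT-III, and 4 were lower, led by CHMP6 (-1.16) and MVB12A (-1.01), an ESCRT-I subunit. On day 6, 4 of the 25 were higher and none lower.

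Of 22 other transcripts of late G2 and mitosis, 1 fell in HCF-2 WT on day 6 (NCAPG, a condensin subunit, -0.64) and 7 fell in HCF-2 Fn3nc*, led by HMMR (-1.17), a spindle protein, and NCAPG (-1.06), with none higher in either. The list medians were -0.17 and -0.24, beside -0.01 and 0.00 over all tested genes, and from day 2 they were -0.20 and -0.14 with 1 gene lower in each line. On day 1, 5 of the 22 were higher in HCF-2 Fn3nc*, led by MKI67 (0.83), the Ki-67 antigen, and NDC80 (0.78), a kinetochore protein, and CCNB1, cyclin B1, was lower (-0.62). On day 6 none of the 22 differed past the thresholds. Among 4 relatives of RHOA, RHOB rose in HCF-2 WT (0.53) and fell in HCF-2 Fn3nc* (-0.55) on day 6 from day 1, and none of the 4 was called from day 2 in either line. On day 1 RHOB was higher (0.52) and RHOC lower (-0.65) in HCF-2 Fn3nc*.

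By root mean square difference of centred log2 CPM over the 16 libraries, among 11702 other genes, the patterns closest to PRC1 were those of MRPL10 (0.0908) and UVRAG (0.0911), against a spread of PRC1 itself of 0.311. ZIC5 (0.110) was among the 2 closest to TSG101, which had a spread of 0.463. For ECT2 they were PERP (0.0975) and SLC30A6 (0.0997), and SLC30A6 (0.0661) was also the closest to ANLN, followed by ARID2 (0.0738). RACGAP1 was closest to SLC35F2 (0.0828) and IQGAP1 (0.0839), CIT to TBRG4 (0.0864) and GJC1 (0.0884), and CEP55 to RNF138 (0.0658) and NUDCD1 (0.0666). RHOA was closest to ZNF664 (0.0488) and LIMS1 (0.0546), CHMP4B to ZNF585B (0.0716) and NCAPD3 (0.0737), and PDCD6IP to PITRM1 (0.0356) and IMMT (0.0421). These values describe likeness over libraries that share lines and days, and genes with a small spread have small differences from many genes.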

How the data were processed

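Reads were 125 nt long and single-end. The authors aligned them to GRCh37 (hg19, GENCODE annotation) with STAR and quantified genes with RSEM 1.3.0. They deposited a table of expected counts and a table of FPKM per gene for all 16 libraries. The kit adds molecular indexes, and the sources used here do not give whether these entered the counting. Expected counts were rounded and tested with the quasi-likelihood F test of edgeR 4.0.16 (R 4.3.3) with TMM factors, on the 18925 genes with FPKM above 1 in at least 1 library. Changes over days were fitted within the 8 libraries of a line, and differences between lines and interactions over all 16 libraries in 8 groups. P-values were adjusted by Benjamini-Hochberg over all genes tested, and calls needed an adjusted p under 0.05 and, except for interactions, a log2 fold change beyond 0.5. With 2 libraries per group, error is given as the model's standard error. The scripts were tested on simulated data. The 10 genes, the gene lists and the rule for naming genes were chosen with earlier results of these data known. All 10 genes were reported, and of each other list up to 2 called genes per direction with the largest fold change and a mean count of at least 100, and for each of the 10 the 2 nearest patterns, of which 1 is not reported here. Alternatives were DESeq2 1.42.0, DESeq2 size factors in edgeR, no FPKM filter, FPKM above 1 in every library, a replicate term, all libraries in 1 fit, leaving out each library and, chosen after the data were seen, library totals without TMM. Duplicates differed by more than sampling noise in every group (mean chi-square per gene from 2.70 in HCF-2 Fn3nc* day 1 to 18.0 in HCF-2 WT day 4). Gene positions are those of GENCODE v44 lifted to GRCh37, and PECAM1 was the 1 listed marker with no match by symbol.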

Additional observations from a re-analysis of the deposited data

Results flagged for a closer look

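The response to 6 days of induction differed between the lines by an interaction test (WT response minus Fn3nc* response, edgeR adjusted p under 0.05) for 3 of the 10 genes from day 1 (36.1% of all genes) and 2 from day 2 (24.3%), PRC1 in both. For PRC1 the difference was 1.36 from day 1 (0.35 in HCF-2 WT against -1.02 in HCF-2 Fn3nc*) and 0.70 from day 2 (0.29 against -0.40). For CIT it was 0.58 from day 1 (0.25 against -0.35) and for CHMP4B 0.37 from day 1 (-0.05 against -0.43). For RACGAP1 it was 0.36 from day 2 (0.26 against -0.09). The mean FPKM of CIT on days 1 and 6 were 17.5 and 17.5 in HCF-2 WT and 19.8 and 16.1 in HCF-2 Fn3nc*. In HCF-2 WT the implied effective length of CIT was shorter on day 1 than on day 6, by a log2 difference of -0.24. The CHMP4B call was lost under 10 of 14 alternatives and the RACGAP1 call under 6 of 14. The values from day 1 share the HCF-2 Fn3nc* day 1 libraries, in which PRC1 and CHMP4B were at their highest level of all 16 libraries and the implied effective length of PRC1 was at its shortest. From day 2, which leaves these libraries out of the contrast, PRC1 was called, and CIT (0.23) and CHMP4B (-0.13) were not.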

How the results depend on the processing

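No value of the 10 genes that was called changed sign under an alternative. In 136 of 156 alternative counts of called genes the count stayed within 1.5 times. The count of 1 for HCF-2 WT day 2 from day 1 was 0 with a replicate block (ECT2, adjusted p = 0.0692) and 0 without any 1 of its libraries, and for day 4 it ranged from 0 to 1 when 1 library was left out. The count of 0 for HCF-2 WT day 6 from day 1 was 1 with no FPKM filter (ECT2, -0.53) and from 0 to 1 with 1 library left out. For HCF-2 Fn3nc* day 2 from day 1 leaving out 1 library gave 1 to 2. Between lines on day 6 the count of 3 was 1 with library totals without TMM. The interaction from day 1 gave 5 instead of 3 with FPKM above 1 in every library, with RACGAP1 (0.31) and PDCD6IP (0.24) added. With library totals it also gave 5, but without CHMP4B and with RACGAP1 (0.24), ANLN (-0.26) and ECT2 (-0.39) added, so the signs were then mixed. From day 2 it gave 1 instead of 2 with no FPKM filter, and 1 to 2 with 1 library left out. The cause was not tested. Replicate numbers did not pair the samples in a common direction. Over 28 pairs of groups the correlation of the difference between replicates 1 and 2 ran from -0.22 to 0.206, with 4 above 0.1. Values below -0.1 also occurred, the lowest between HCF-2 WT day 4 and HCF-2 Fn3nc* day 4. Whether duplicates of different groups shared a difference in opposite order was not tested. The replicate block ended 1 more call, the interaction of CHMP4B (adjusted p = 0.0512).

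Over all genes, the 57 calls of HCF-2 WT day 2 from day 1 became 227 with no FPKM filter, 102 with all 16 libraries in 1 fit, 33 with the replicate block and 1 to 10 without 1 library. The 1325 calls of HCF-2 WT day 4 from day 1 became fewer without either HCF-2 WT day 1 library and more without either HCF-2 WT day 4 library. Without HCF-2 WT day 4 replicate 2, more genes were called lower and fewer higher. The share of genes lower on that day thus depends on this library. The 542 calls of HCF-2 Fn3nc* day 6 from day 2 became fewer without either day 6 library. The 3151 between lines on day 2 were 2088 with FPKM above 1 in every library, where fewer genes were tested.

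Library totals in place of TMM moved the median of all genes between lines from 0.02 to 0.15 on day 6 and from 0.00 to 0.10 on day 2, so that genes called higher and lower in HCF-2 Fn3nc* went from 1719 and 1432 to 2256 and 906 on day 2, from 1902 and 2291 to 2459 and 1802 on day 4, and from 2501 and 3183 to 3463 and 2463 on day 6. Within the HCF-2 Fn3nc* line, the genes higher and lower than on day 1 went from 792 and 2027 to 1066 and 1675 on day 2, from 1522 and 2918 to 2147 and 2473 on day 4, and from 1683 and 2920 to 2222 and 2500 on day 6. Differences under 0.5 on the log2 scale were not called whatever their p, and each construct is represented by 1 line.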
